A study of Homo sapiens with 3 samples.

Results

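Aminoacyl-tRNA synthetases, the enzymes that join each amino acid to its transfer RNA, were followed on arrays of the human myeloma cell line MM1S under FK866, an inhibitor of the NAD-recycling enzyme NAMPT. The 3 groups, with 1 array each, were untreated (0 h in the labels), FK866 at 10 nM for 6 h, and FK866 at 10 nM for 24 h, all grown in RPMI-1640 with serum, antibiotics and glutamine. With no untreated array at the treated times, FK866 cannot be told apart from fresh medium or time in culture. The members were 35 genes chosen by name, 19 for cytosolic and 16 for mitochondrial enzymes, each read through probe sets that the platform annotation assigns to exactly 1 gene symbol. Of these, 32 had such a probe set and all 32 passed the filter on level, out of 11883 genes measured in all. MARS1, QARS1 and TARS2, which charge methionine, glutamine and mitochondrial threonine tRNAs, share their 5 probe sets with microRNA genes in the annotation and so have no value.

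Most tRNAs are charged directly by an enzyme specific for their amino acid, in cytosol and mitochondria, at the cost of ATP, while mitochondrial glutamine tRNA is first charged with glutamate, which is then amidated. Separate nuclear genes serve each compartment for most amino acids, while GARS1 and KARS1 encode enzymes that serve both. Several cytosolic enzymes sit in a multisynthetase complex held together by the scaffold proteins AIMP1, AIMP2 and EEF1E1. When a charged tRNA runs short, the kinase GCN2 (EIF2AK4) senses the uncharged form and translation of the transcription factor ATF4 rises, and ATF4 in turn raises genes of amino acid supply and many cytosolic synthetases.

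Transcripts of the synthetases stayed close to their untreated level at both times. The values are log2 differences between 2 arrays, after signals below 16 had been set to this floor, without a replicate to check any of them. The 6 h and 24 h comparisons share the untreated array. A single member, CARS2, was at least 1.5-fold lower at 6 h, against 11.3% of all measured genes, and 0 of 32 were at least 1.5-fold higher, against 5.71%. At 24 h, 0 of 32 were at least 1.5-fold lower (14.1% of all genes) and 0 were at least 1.5-fold higher (5.01%). No member differed 2-fold in any comparison. At 6 h 3.32% of measured genes were 2-fold or more lower and 1.44% higher; the shares were 4.17% and 1.14% at 24 h, and 1.84% and 1.09% at 24 h against 6 h. Brighter genes differed less: 25 members had a mean log2 signal no lower than 8, and among all 5530 such genes 4.56% were at least 1.5-fold lower at 6 h and 6.85% at 24 h.

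The median deposited signal was 20.5, 17.4 and 17.2 in the untreated, 6 h and 24 h arrays. The median gene shifted by -0.10 (6 h) and -0.13 (24 h) from untreated cells, and member values are to be read against these shifts. Probe sets that read 1 gene spread with a pooled SD of 0.18 at 6 h and 0.20 at 24 h where the mean log2 signal was 10 or more, and 0.42 at either time between 5 and 8. This spread holds differences between probes and isoforms but none between cultures. All 10 listed markers of plasma cells and myeloma were measured, with summed signals of 41708, 40083 and 40043 in the untreated, 6 h and 24 h arrays. Of 20 listed markers of T, NK, myeloid and stromal cells, 4 were measured. FCGR3A had no probe set of 1 symbol, and the highest signal of any of the others on any array was 69.2. In a bulk sample, fewer cells of a type and less RNA per cell cannot be told apart.

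**Figure D1:**
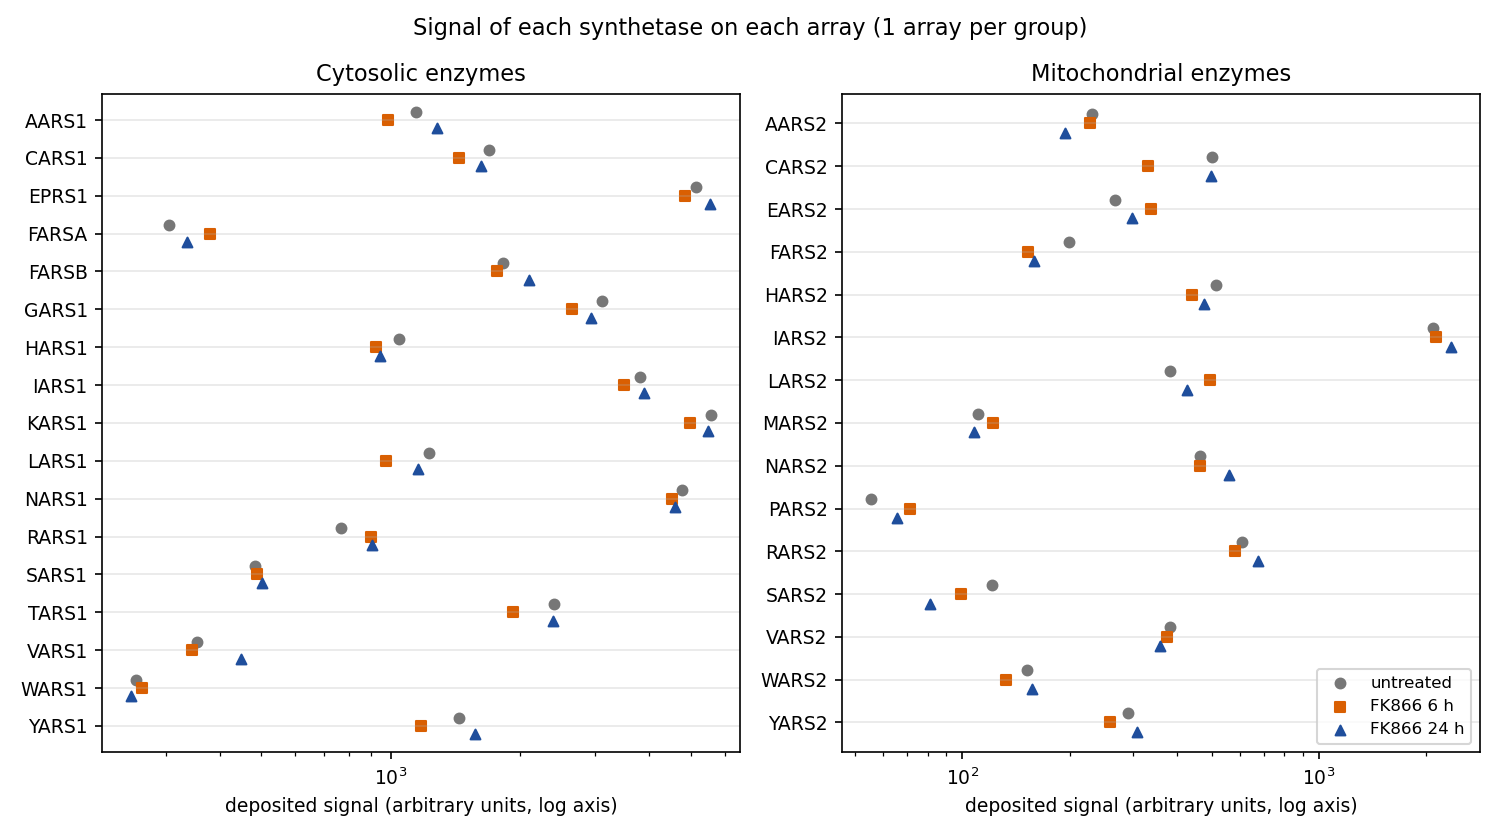
Deposited signal, in arbitrary units on a log axis, of the 17 cytosolic and 15 mitochondrial synthetases with a value, on the untreated, FK866 6 h and FK866 24 h arrays. Each symbol is 1 array. The 3 symbols of a gene lie close together; positions of different genes are not comparable, because probe sets differ in sensitivity.

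In the deposited signals most cytosolic synthetases were slightly lower at 6 h and back near or above the untreated signal at 24 h, while after centring on array medians 4 of 17 were lower at 6 h. The 6 h array held the lowest of the 3 signals for 13 of 17 genes, against 33.7% of all measured genes. Only 12 genes kept a value without probe sets that may cross-hybridise (names ending in _s_at, _x_at or _a_at). Of these, 6 were lowest at 6 h, against 33.3% of all genes. TARS1, which charges threonine tRNA, had signals of 2401, 1932 and 2387 in the untreated, 6 h and 24 h arrays, a dip at 6 h alone. YARS1, the tyrosine enzyme, had 1443, 1179 and 1571, with 24 h the highest. AARS1, the alanine enzyme, had 1147, 985 and 1281, in the same order. LARS1, which charges leucine tRNA and also acts as a leucine sensor for mTORC1, had 1228, 976 and 1160. Its 4 probe sets all gave a lower 6 h value, between -0.33 and -0.12, but differed in sign at 24 h, between -0.32 and 0.21. These 4 genes had 6 h differences of -0.31, -0.29, -0.22 and -0.33 and 24 h differences of -0.01, 0.12, 0.16 and -0.08.

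Several other bright probe sets were also lowest at 6 h. CARS1 (cysteine) had signals of 1694, 1445 and 1620, and GARS1 (glycine, for both compartments) 3112, 2642 and 2935. KARS1 (lysine, for both compartments) had 5575, 4993 and 5486, and IARS1 (isoleucine) 3819, 3493 and 3887. Their 6 h differences lay between -0.24 and -0.13 and their 24 h differences between -0.08 and 0.03. EPRS1, a fused enzyme for glutamate and proline, had 5144, 4854 and 5537, and its 3 probe sets lay between -0.13 and -0.05 at 6 h and between 0.11 and 0.20 at 24 h. NARS1 (asparagine) differed by -0.08 and -0.05, within the spread between probe sets.

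The remaining cytosolic enzymes had other shapes. FARSA and FARSB are the catalytic and the partner subunit of 1 phenylalanine enzyme. FARSA had signals of 304, 379 and 335, highest at 6 h, and FARSB had 1823, 1767 and 2102, highest at 24 h, though its other 2 kept probe sets, both dimmer, differed by -0.30 and -0.50 at 24 h. VARS1 (valine) had 353, 345 and 449, a 24 h difference of 0.35, which was the largest of any member at that time on the higher side. RARS1 (arginine) was higher on both treated arrays, with 765, 900 and 904. HARS1 (histidine) differed by -0.18 and -0.15. SARS1 (serine) and WARS1 (tryptophan, also known as an interferon-gamma-induced gene) differed by 0.02 and 0.05 at 6 h and by 0.06 and -0.04 at 24 h.

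The median cytosolic difference was -0.13 at 6 h, against -0.10 over all genes, with 13 of 17 below 0, against 63.2% of all genes, and 9 of 17 below the median gene. Its sign followed the scaling: the median was 0.01 after quantile normalization and 0.10 after centring the arrays on their medians, where the median gene stood at 0.03 and 0.13. The count of genes with their lowest signal at 6 h then became 8 of 17 (28.6% of all genes) and 4 of 17 (21.6%). At 24 h the cytosolic median was 0.03, against -0.13 over all genes. Here 16 of 17 lay above the median gene, against 51.9% of the 5530 bright genes, HARS1 being the exception. The count was also 16 after quantile normalization. Centring shifts nearly all genes of an array alike, the median gene among them, so the 16 it gave is no separate check. Without probe sets that may cross-hybridise, 12 genes kept a value and 9 of them lay above the median gene.

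**Figure D2:**
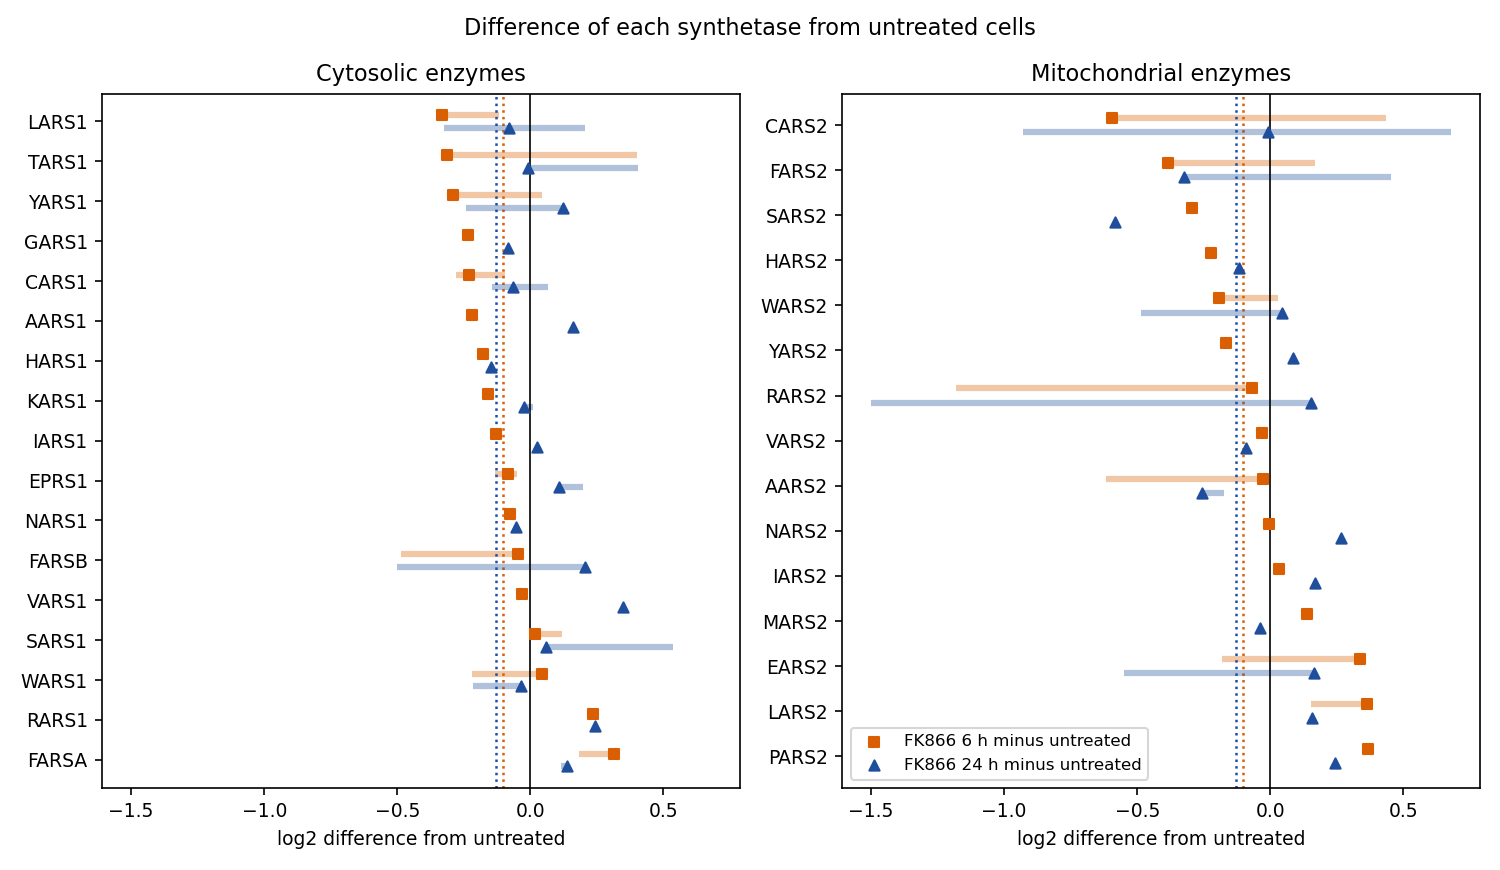
Log2 difference of each synthetase from untreated cells at 6 h (squares) and 24 h (triangles); pale bars run from the lowest to the highest kept probe set of the gene, and dotted lines mark the median of all measured genes. In the cytosolic panel 16 of 17 triangles lie right of the 24 h line, and in the mitochondrial panel 12 of 15. The bars of CARS2 and RARS2 show how far probe sets of a gene can disagree.

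Between the treated arrays, cytosolic synthetases were higher at 24 h than at 6 h. This held for 15 of 17, against 44.4% of all genes, with a median of 0.15 against -0.03 over all genes. Of the 32 kept cytosolic probe sets, 26 were higher at 24 h. The exceptions among genes were FARSA at -0.18 and WARS1 at -0.08. YARS1 was 1.33-fold higher, though its dim second probe set differed by -0.28, and AARS1, with 1 probe set, was 1.30-fold higher. VARS1 was 1.30-fold and TARS1 1.24-fold higher. YARS1, AARS1 and CARS2, 3 of 32, were beyond 2 probe set SDs, against 9.05% of all genes. Against untreated cells the count was 1 (CARS2) at 6 h and 0 at 24 h, against 9.69% and 10.8% of all genes. The SD was pooled over genes binned by the mean brightness of all their probe sets, but picked by a gene's brightest probe set. It is therefore narrow for YARS1 and CARS2, whose other probe sets are dim. The count of 15 was unchanged by quantile normalization and by centring. These moved the median gene only from -0.03 to 0.01 and to -0.02, so the unchanged count is little of a check. Without probe sets that may cross-hybridise only 12 genes kept a value and 8 of them were higher, with a median of 0.03.

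Within the cytosolic group, known roles separated the genes little. The 5 measured enzymes of the multisynthetase complex (EPRS1, IARS1, KARS1, LARS1 and RARS1) had medians of -0.13 at 6 h, 0.03 at 24 h and 0.15 between the treated arrays, and the 12 outside it had -0.13, 0.02 and 0.16. AIMP1, the one scaffold gene with a value, had signals of 1815, 1780 and 2072, highest at 24 h. The 10 measured enzymes that ATF4 is known to raise in other settings had a median of -0.17 at 6 h, with 6 of 10 below the median gene, and 0.01 at 24 h. The other 7 had -0.05 and 0.14. By catalytic fold, the 8 cytosolic class I enzymes had medians of -0.11 and 0.07 and the 10 class II enzymes -0.12 and 0.02, with EPRS1 counted in both classes.

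Mitochondrial synthetases differed more from gene to gene, with a 6 h interquartile range of 0.29 against 0.20 for cytosolic ones, and more of them had dim probe sets. Among members with a mean log2 signal no lower than 8, the range was 0.20 for mitochondrial and 0.19 for cytosolic genes at 6 h, and 0.17 for mitochondrial and 0.20 for cytosolic genes at 24 h. The 6 h differences ran from -0.60 to 0.37 and the 24 h differences from -0.58 to 0.27. A mean log2 signal under 8 was found for 6 of 15 mitochondrial genes and 1 of 17 cytosolic ones. The mitochondrial medians were -0.03 at 6 h and 0.04 at 24 h, and 9 and 12 of 15 lay above the median gene. With a mean log2 signal no lower than 8, 9 of 9 mitochondrial and 15 of 16 cytosolic genes lay above it at 24 h. Their medians were 0.15 and 0.04. Between the treated arrays, 8 of 15 mitochondrial genes were higher at 24 h, with a median of 0.06, and 1 was at least 1.5-fold higher (5.28% of all genes). In the same comparison 0 of 32 members were at least 1.5-fold lower (7.91%).

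CARS2, the mitochondrial cysteine enzyme, gave the largest difference of the family. Its brightest probe set had signals of 502, 332 and 499 in the untreated, 6 h and 24 h arrays, low at 6 h alone, 1.51-fold lower there than in untreated cells, and at 24 h higher than at 6 h by 0.59. A second probe set had 50.9, 48.2 and 26.7, low at 24 h alone, and another was below the floor in untreated cells and had 21.6 and 25.6 at 6 h and 24 h. The 3 therefore differed by -0.60, -0.08 and 0.43 at 6 h. With their mean, or after either rescaling, CARS2 was not 1.5-fold lower.

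Some mitochondrial enzymes had lower deposited signals on both treated arrays: 10 of 15 were lower at 6 h, a share near the 63.2% of all genes, and 3 of 15 after centring on array medians. SARS2 (serine) had signals of 121, 98.9 and 81.0, just short of 1.5-fold lower at 24 h, from 1 probe set. FARS2 (phenylalanine) had 199, 153 and 159, while its second probe set differed by 0.17 and 0.45. AARS2 (alanine) differed by -0.03 and -0.26, and HARS2 (histidine) by -0.22 and -0.12. VARS2 (valine) differed by -0.03 and -0.09. By their brightest probe sets, all of these but SARS2 were within 1 probe set SD of genes of their brightness. The second AARS2 probe set differed by -0.62 and -0.17, beyond that SD of 0.42 at 6 h. That of FARS2 was beyond it at 24 h.

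Others had higher signals on both treated arrays. LARS2 (leucine) had signals of 383, 493 and 427, highest at 6 h, with both probe sets higher at both times. PARS2 (proline) had 55.5, 71.5 and 65.7, and EARS2 (glutamate) had 267, 338 and 299, again highest at 6 h. The other kept EARS2 probe sets, all dimmer, differed by -0.18, -0.17 and 0.19 at 6 h. At 24 h they were all lower, at -0.11, -0.38 and -0.55. IARS2 (isoleucine) had 2085, 2132 and 2342. NARS2 (asparagine) had 465, 464 and 560, higher at 24 h alone. The remaining 4 had opposite signs at the 2 times: RARS2 (arginine) differed by -0.07 and 0.15, YARS2 (tyrosine) by -0.17 and 0.09, WARS2 (tryptophan) by -0.19 and 0.04 and MARS2 (methionine) by 0.14 and -0.04. A dim probe set of RARS2 had 45.8, 20.2 and 16.2 and differed by -1.18 and -1.50. The second kept probe set of WARS2 had the opposite signs, at 0.03 and -0.49.

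The contrast between compartments was small. The cytosolic median minus the mitochondrial one was -0.10 at 6 h, -0.02 at 24 h and 0.09 between the treated arrays. Setting each mitochondrial enzyme beside the cytosolic enzyme for the same amino acid gave 15 pairs, some of which share a gene. The cytosolic partner had the lower difference in 8 of 15 pairs at 6 h, and again in 8 at 24 h. The widest pairs at 6 h were LARS1 against LARS2, at -0.70, and FARSA against FARS2, at 0.70.

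HARS1 and HARS2 lie head to head on chromosome 5, and their differences were close, at -0.18 and -0.22 at 6 h and -0.15 and -0.12 at 24 h. Each had 1 probe set, and no value passed 1 probe set SD (0.28 at 6 h and 0.29 at 24 h). VARS1 and VARS2 were closer at 6 h, at -0.03 each, though not at 24 h. Whether the arrangement of HARS1 and HARS2 plays a part was not tested. The first bases of HARS1 and HARS2, in RefSeq on GRCh38.p14, have 84 bases between them. The shared stretch is shown because it lies between the starts of a cytosolic and a mitochondrial enzyme. It is given on the plus strand, and capitals mark the first transcribed base of HARS1, on the other strand, and of HARS2.
HARS1-HARS2 (chr5:140691370-140691455): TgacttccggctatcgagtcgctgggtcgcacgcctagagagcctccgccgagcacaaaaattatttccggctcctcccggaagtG

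Several cytosolic synthetase promoters hold the C/EBP-ATF type of element to which ATF4 binds with a C/EBP partner. The motif TGATGNAA was searched on both strands in RefSeq windows from 250 bases before to 50 after each transcription start, which matched 30 of 35 members (not AARS2, LARS1, VARS1, VARS2 and YARS1). It occurred in 7 of 16 cytosolic genes (the 6 shown and MARS1), in 1 of 14 mitochondrial genes (YARS2) and in 4.46% of all 27305 genes with a window (3.62% of the 35116 windows). The stricter form TGATGCAA, contained in the first, occurred in 6 of 16, 0 of 14 and 1.08% of all genes (0.866% of windows). The stretches below carry the motif in capitals, read along the gene's own strand, with up to 40 bases on each side and no further than 30 bases past the start, and are shown because all 6 genes have values to set beside them.
AARS1 (chr16:70289646-70289733, minus strand): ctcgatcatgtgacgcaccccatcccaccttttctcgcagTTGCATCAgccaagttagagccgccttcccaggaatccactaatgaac
CARS1 (chr11:3057394-3057465, minus strand): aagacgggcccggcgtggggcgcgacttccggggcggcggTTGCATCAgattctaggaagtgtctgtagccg
GARS1 (chr7:30594805-30594892, plus strand): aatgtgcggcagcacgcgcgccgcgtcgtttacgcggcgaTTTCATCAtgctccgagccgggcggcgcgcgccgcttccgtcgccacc
IARS1 (chr9:92293668-92293750, minus strand): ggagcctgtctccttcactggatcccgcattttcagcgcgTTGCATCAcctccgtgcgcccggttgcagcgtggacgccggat
NARS1 (chr18:57621807-57621862, minus strand): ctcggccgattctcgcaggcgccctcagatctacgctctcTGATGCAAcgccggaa
TARS1 (chr5:33440927-33440994, plus strand): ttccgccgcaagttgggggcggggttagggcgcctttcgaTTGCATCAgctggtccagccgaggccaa
On the gene's strand the motif appears in reverse, as TTGCATCA, in AARS1, CARS1, IARS1 and TARS1, and as TTTCATCA in GARS1. In CARS1, IARS1, NARS1 and TARS1 the site lies within 22 bases of the start, and in AARS1 its first base is at position -187 relative to the start. A match describes letters in a window, not occupancy.

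The 6 cytosolic genes that hold the motif and have a value were all lower at 6 h in the deposited signals, and 2 of 6 after centring on array medians, with differences between -0.31 and -0.08 and a median of -0.22. The 8 searched cytosolic genes without it lay between -0.18 and 0.32, with a median of -0.01, and 4 of them were lower. These ranges overlap. Relative to the median gene, 5 of 6 with the motif and 2 of 8 without it were lower, and after centring 0 of 8 without it were below 0. Between the treated arrays, 6 of 6 with the motif were higher at 24 h (median 0.16) and 6 of 8 without it (median 0.03), against 44.4% of all genes. Outside the family, the 264 measured genes with TGATGNAA had a median of -0.16 at 6 h, against -0.10 for 9395 genes without it, and 65.2% against 63.4% were below 0. The 65 with TGATGCAA had a median of -0.19, and 66.2% were below 0. Between the treated arrays, the 264 genes had a median of -0.005 and 47.0% were higher at 24 h. The 9395 genes without the motif had -0.036 and 44.3%, and the 65 with TGATGCAA had 0.033 and 56.9%.

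**Figure D3:**
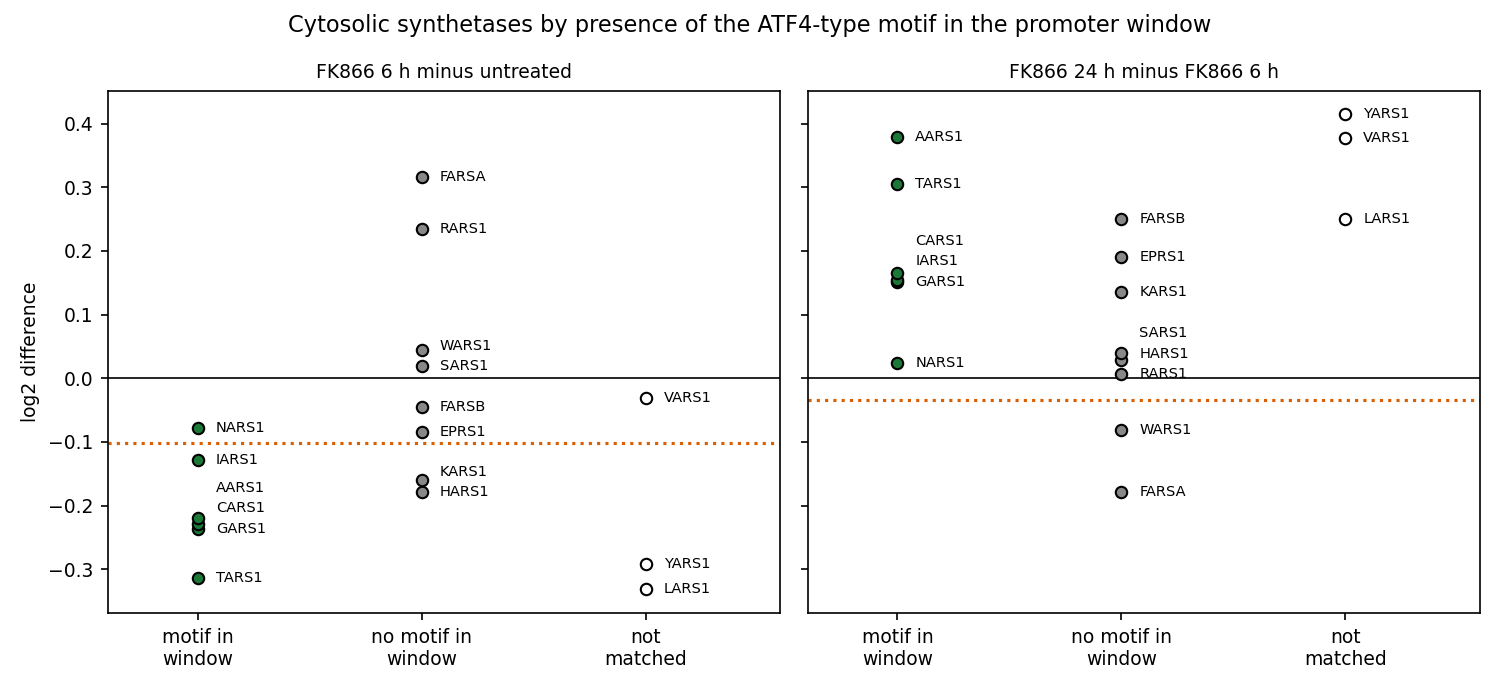
Log2 differences of the 17 cytosolic synthetases, split by whether the promoter window holds TGATGNAA, lacks it or was not matched, at 6 h against untreated (left) and at 24 h against 6 h (right); each point is a gene and the dotted line is the median of all measured genes. The 6 genes with the motif lie below 0 on the left and above 0 on the right, and overlap the genes without it. At 6 h, 2 of 6 lie below 0 after centring on array medians, against 0 of 8 without the motif. With the mean over probe sets the counts are 5 of 6 and 5 of 8.

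Other genes of amino acid supply and translation give the setting. ATF4 targets of amino acid supply, a list that partly repeats earlier results of these arrays, had a median of -0.48 at 6 h, with 17 of 19 below the median gene and 7 at least 1.5-fold lower, against 11.3% of all genes. The cystine transporter SLC7A11 was 2.14-fold lower and CTH, which makes cysteine, 2.50-fold lower, while PHGDH and MTHFD2, of serine and folate metabolism, differed by 0.00 and -0.05. At 24 h the list median was -0.23, and 17 of 19 were higher than at 6 h, against 44.4% of all genes. CTH was an exception, 4.06-fold lower at 24 h than in untreated cells. ATF4 had deposited signals of 4968, 4232 and 4823 from 1 probe set, lowest at 6 h. Its 6 h difference was -0.23, against -0.10 for the median gene, and its size depends on the scaling, as for the synthetases. The list of ATF4 and its stress targets had medians of -0.24 and -0.26, and DDIT3, a pro-apoptotic ATF4 target, differed by 0.11 and -0.29.

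EIF2AK4, the GCN2 kinase that senses uncharged tRNA, was lower on both treated arrays. Its signals were 676, 399 and 393, which is 1.69-fold lower at 6 h and at 24 h 1.72-fold lower than in untreated cells. Its pair of probe sets gave -0.95 and -0.76 at 6 h, and -1.43 and -0.78 at 24 h. The other members of that list were the eIF2-alpha kinases EIF2AK1, EIF2AK2 and EIF2AK3, the GCN2 activator GCN1 and the kinase substrate EIF2S1. By their brightest probe sets they differed by -0.11 to 0.06 at 6 h and by -0.10 to 0.17 at 24 h. The lowest kept probe sets at 6 h reached -0.48 (EIF2S1), -0.41 (EIF2AK2), -0.31 (GCN1) and -0.18 (EIF2AK1). At 24 h the kept probe sets of these genes ran from -0.38 (EIF2S1) to 0.21 (EIF2AK2). EIF2AK3 had 1 probe set.

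Cytosolic translation factors did not share the 24 h values of the synthetases. In the deposited signals, but not in the medians after centring, all 15 measured were below 0 at both times, against 63.2% of all genes at 6 h and 65.2% at 24 h, with medians of -0.18 and -0.22, and 5 of 15 were higher at 24 h than at 6 h. EIF3C and EIF3B, subunits of initiation factor eIF3, and the release factor ETF1 were the lowest at 6 h, at -0.63, -0.56 and -0.46. After quantile normalization the medians of this list were -0.05 and -0.05, and after centring 0.05 and 0.03. Mitochondrial translation factors had medians of -0.01 and -0.05 over 11 genes, and the initiation factor MTIF2 stood at 0.26 and 0.25. The subunits of the amidotransferase that makes mitochondrial glutaminyl-tRNA, QRSL1, GATB and GATC, differed by 0.04, 0.34 and 0.18 at 6 h and by 0.16, 0.21 and -0.22 at 24 h.

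Genes of tRNA maturation varied widely around a median of -0.13 at 6 h and -0.06 at 24 h, over 21 genes. TRMT61A, a tRNA methyltransferase subunit, was 2.64-fold lower at 6 h, with signals of 96.8, 36.7 and 86.6, but its 3 probe sets ranged from -1.58 to 0.20. OSGEP and YRDC act in the same tRNA modification, threonylcarbamoyladenosine, and differed in opposite directions. OSGEP was 1.94-fold lower at 6 h, with 172, 88.9 and 124, and YRDC was 1.47-fold higher at 24 h, with 333, 400 and 491. GTPBP3, which modifies mitochondrial tRNAs, was 1.68-fold and 1.85-fold lower.

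**Figure D4:**
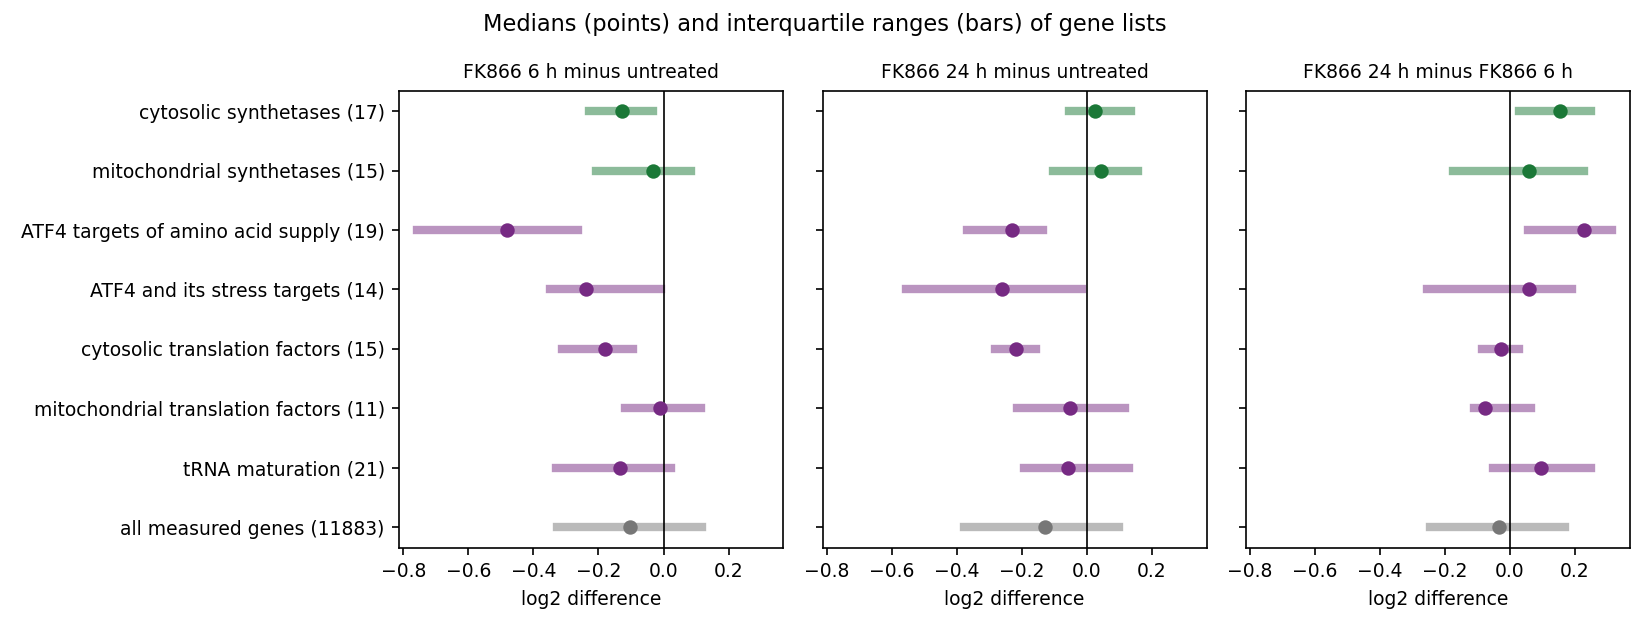
Median (point) and interquartile range (bar) of log2 differences for both synthetase groups, 5 other gene lists and all measured genes, in the 3 comparisons; the number of measured genes is in brackets. Cytosolic synthetases lie near all genes at 6 h (-0.13 against -0.10) and above them at 24 h (0.03 against -0.13), where cytosolic translation factors stand at -0.22. Mitochondrial synthetases lie above all genes at 24 h as well, at 0.045.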

How the data were processed

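Biotinylated cRNA was made from total RNA by the standard Affymetrix procedure, per the labels' protocols. The deposited table gives 1 intensity per probe set and array, on a linear scale; the sources used here do not name the authors' summary, background correction or scaling. Signals below 16 were set to 16 before log2 values were taken. Probe sets with a mean log2 signal over the 3 arrays at or above the median over non-control probe sets, a signal of 19.1, were kept. The brightest kept probe set stands for its gene. Gene names come from GEO's platform annotation of 2016, joined to RefSeq by gene identifier. The planned display of proteins was not made, since no protein table was used here.

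No test was possible on 1 array per group. Members are given by values, counts and medians beside those of all measured genes, and the number of arrays limits every value. The 1.5-fold and 2-fold sizes describe these arrays only. The members, lists, sizes and alternatives were chosen with earlier results of these data known. All members with a value are named. From other lists, the 3 highest and 3 lowest genes at each time, all genes of lists of up to 6, and ATF4, DDIT3 and NAMPT may be named. The promoters shown were chosen after the values were seen, as those holding the motif among measured cytosolic members. The steps were tested on simulated data. Alternatives covered scaling, floor, filter, summary of probe sets and probe sets that may cross-hybridise (names ending in _s_at, _x_at or _a_at). Python 3.11.15, numpy 2.4.6, pandas 2.3.3 and matplotlib 3.10.9 were used.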

Additional observations from a re-analysis of the deposited data

How the results depend on the processing

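No paired analysis was possible because each group has 1 array. The floor of 64, the absence of a level filter and the filter at the 75th percentile changed none of the synthetase medians beyond the probe set SD divided by the root of the number of genes, and none of the counts of members past 1.5-fold. Scaling set the sign of the medians against untreated cells. Quantile normalization gave cytosolic medians of 0.0050 at 6 h and 0.19 at 24 h and a mitochondrial median of 0.21 at 24 h; centring on array medians gave cytosolic medians of 0.10 and 0.27 and mitochondrial ones of 0.20 and 0.29; subtracting the median gene gave cytosolic medians of -0.026 and 0.15 and mitochondrial ones of 0.071 and 0.17. Averaging probe sets gave a mitochondrial median of -0.087 at 24 h and a cytosolic minus mitochondrial gap of 0.081 at 24 h. When probe sets open to cross-hybridisation were left out, the cytosolic median between the treated arrays was 0.027 and the gap -0.033. A higher filter, at a mean log2 signal of 8, an alternative chosen after seeing the data, gave a mitochondrial median of 0.15 at 24 h.

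The count of 1 member at least 1.5-fold lower at 6 h became 0 under quantile normalization, centring, subtraction of the median gene, log2(signal + 32), the mean over probe sets and a 2-fold size. The count of 1 member at least 1.5-fold higher at 24 h than at 6 h, CARS2, became 0 with log2(signal + 32), the mean over probe sets (where CARS2 stood at -0.0071) and a 2-fold size. Centring gave 2 members at least 1.5-fold higher at 6 h and 1 at 24 h. With no filter or a floor of 64, the median of all genes is 0 because unexpressed genes enter, and 9 of 17 cytosolic genes lay above it at 24 h. No value has a replicate, and dim probe sets, as of PARS2 and MARS2, limit the mitochondrial values.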
